A study of Mus musculus with 4 samples.

Results

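The genes described here encode the machinery that repairs damaged bases, mismatched bases and broken ends in DNA. They are 41 genes chosen by symbol from the 23361 genes of the deposited table, and they comprise 15 genes of base excision repair, 5 of mismatch repair, 12 of nucleotide excision repair, 8 of end joining and *Mgmt*, a gene of direct reversal. Their levels were compared in early T lineage progenitors (ETP), the most immature T cell precursors in the thymus, from young and old female C57BL6 mice (C57BL/6J in the methods of the study). Its methods give different suppliers for young adult and old mice, so colony and age cannot be told apart. Young mice were given as 4 to 6 weeks and old mice as 72 weeks of age. The authors' short name for the old condition can be read as an older age, in months, and this difference was not resolved. The labels name no transgene and no treatment at either age, and the sort gate for ETP was Lin- CD44+ CD25- CD117+. RNA was sequenced in 4 libraries, 2 per age. The table numbers the libraries within an age, and these are called replicates 1 and 2, but which labelled sample each of them is remains unknown. Nothing in the sources used here ties the libraries to separate animals, so p-values measure the spread between libraries, which may be technical. In bulk RNA, fewer cells with a transcript and less transcript per cell cannot be told apart.

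The young libraries held 16658864 (replicate 1) and 6414915 (replicate 2) fragments, the old libraries 11816478 (replicate 1) and 4839341 (replicate 2). Levels are given as normalized CPM, estimated fragments scaled to a common library size with TMM factors. On this scale a count of 0 would still allow 0.176 to 0.654 CPM (3 fragments), a limit that covers counting error only. All 41 genes had fragments in all 4 libraries. Of them, 40 passed the filter on low values (FPKM reaching 1 in 2 or more libraries) and were tested together with the other genes, 10080 in all. The gene outside the filter was *Lig4*. Of the genes of the gate, *Kit*, which encodes CD117, and *Cd44* had mean levels of 353 and 237 TPM (FPKM rescaled to the same sum in every library), and *Il2ra*, which encodes CD25, 13.4 TPM.

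In base excision repair a DNA glycosylase removes a damaged base, the endonuclease APE1 cuts the strand at the empty site, and a polymerase and a ligase close the gap with the help of PARP1 and XRCC1. Mismatch repair proteins recognize wrongly paired bases after replication, and nucleotide excision repair cuts out bulky lesions such as those made by ultraviolet light. In end joining the Ku dimer binds broken ends and recruits DNA-PK, Artemis and ligase IV. T lineage cells depend on this last pathway because rearrangement of the T cell receptor genes passes through double-strand breaks that end joining closes.

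Summed over the 41 genes, the level was 3239 and 3223 CPM in young replicates 1 and 2 and 2646 and 2449 CPM in old replicates 1 and 2. Both young sums lay above both old sums, and the young libraries differed by far less than the ages. Such sums weigh the most abundant genes most, among them *Parp1*, *Ddb1*, *Msh6* and *Xrcc6*. Of the 40 tested genes, 32 had a lower and 8 a higher estimate in old than in young ETP, where 53.4% of all tested genes had a lower and 46.6% a higher estimate. The median log2 fold change from young to old was -0.23, against -0.033 for all tested genes. No single gene passed the test. After Benjamini-Hochberg adjustment, edgeR's quasi-likelihood test called none of the 40 at a threshold of 0.05 (0% of all tested genes in either direction). Without adjustment 2 genes, *Msh3* and *Xrcc6*, had a p under 0.05. Both were lower in old ETP, a direction in which 0.913% of all tested genes had such a p, beside 4.65% in the other direction. DESeq2 called none of the 40 either (0.149% of all genes lower and 2.08% higher in old ETP), nor did edgeR without a filter on low values (0.199% lower and 2.77% higher). With the replicate number as a term in the model, which no label supports as a pairing, edgeR called those 2 genes lower (1.97% of all genes lower and 5.73% higher).

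In 11 of the 40 genes, or 27.5%, both young libraries lay above both old libraries, which was so for 15.5% of all tested genes. The reverse order held for 2 of the 40, *Nthl1* and *Nhej1*, against 16.1% of all tested genes. The libraries of the ages overlapped in the other 27. On the authors' FPKM scale, which leaves a difference in depth between the libraries, the median of all genes shifted to -0.27. There 38 of the 40 genes had a lower estimate, beside 79.8% of all genes, and 9 of the 40 had both young libraries on top, beside 21.4% of all genes, and none the reverse, beside 5.74%. The separation of the libraries was therefore close to the background on that scale.

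**Figure D1:**
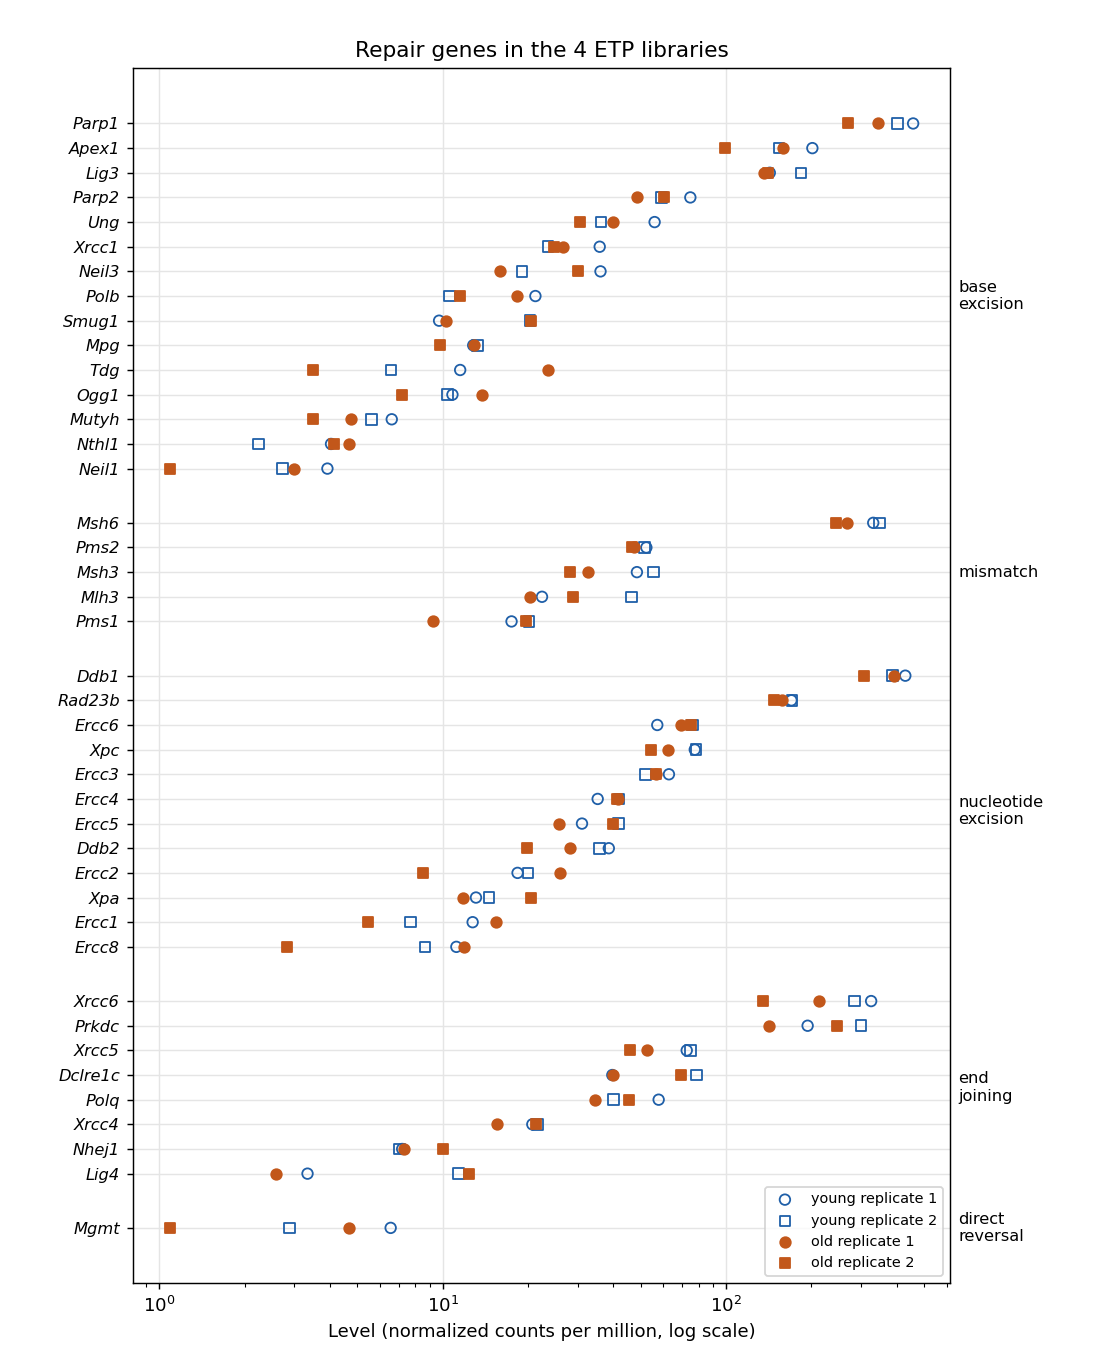
Level of each repair gene in normalized CPM (log scale) in the 4 libraries, grouped by pathway and ordered by mean level. Open symbols are young and filled symbols old ETP, circles replicate 1 and squares replicate 2. *Parp1* has all young points above all old points, whereas in *Prkdc*, *Dclre1c* and *Lig4* both squares lie above both circles.

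**Figure D2:**
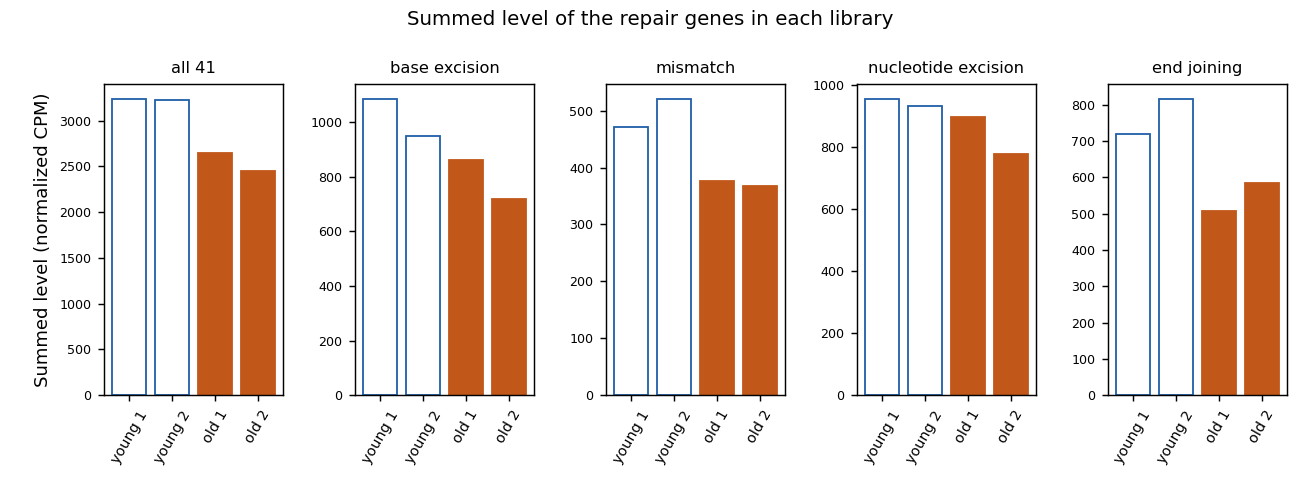
Summed level in normalized CPM of all 41 repair genes and of 4 pathways in each library, with open bars for young and filled bars for old ETP. In each panel both young bars are taller than both old bars, from 3239 and 3223 against 2646 and 2449 for all 41 genes.

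Base excision repair had 15 genes, all tested. Of these, 12 had a lower estimate in old ETP and the median log2 fold change was -0.24. Their summed level was 1084 and 949 CPM in young and 860 and 716 CPM in old replicates 1 and 2. The 6 genes that act after the glycosylase, namely *Parp1*, *Parp2*, *Xrcc1*, *Lig3*, *Apex1* and *Polb*, all had lower estimates, with a median of -0.27.

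*Parp1* encodes the enzyme that senses strand breaks and builds poly(ADP-ribose) on them. It was at 457 and 402 CPM in young and 344 and 269 CPM in old replicates 1 and 2. Both young libraries lay above both old ones, and the log2 fold change was -0.49 with a 95% interval from -1.18 to 0.20 (adjusted p = 0.999). *Apex1*, which encodes APE1, had the highest level per length of all 41 genes, with a mean of 258 TPM. It was at 202 and 154 CPM in young and 158 and 99.1 CPM in old replicates, so that old replicate 1 lay just above young replicate 2 (log2 fold change -0.46, interval -1.30 to 0.38). *Lig3*, the ligase that partners XRCC1, was at 143 and 184 CPM in young and 136 and 141 CPM in old replicates. Its ages did not overlap, but young replicate 1 stood barely above the old libraries. The scaffold gene *Xrcc1* and the gap-filling polymerase gene *Polb* overlapped between the ages, and the estimate of each was above 0 without young replicate 1.

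The 9 glycosylase genes were expressed at a lower level and varied more. Their mean levels ran from 5.13 TPM for *Neil1* to 43.7 TPM for *Ung*, which encodes the enzyme that removes uracil. Of the 9, 6 had a lower and 3 a higher estimate in old ETP. *Mutyh*, whose product removes adenine paired with oxidized guanine, was at 6.61 and 5.61 CPM in young and 4.74 and 3.49 CPM in old replicates, without overlap (log2 fold change -0.56, interval -1.68 to 0.57). *Neil1*, which acts on oxidized pyrimidines, was at 3.92 and 2.72 CPM in young and 2.99 and 1.09 CPM in old replicates. The last value rests on 5 fragments, and the ages overlapped. *Nthl1*, another glycosylase gene for oxidized pyrimidines, had the opposite order at 4.04 and 2.24 CPM in young and 4.66 and 4.14 CPM in old replicates. Its log2 fold change was 0.46 with an interval from -0.83 to 1.76. *Tdg*, whose product removes thymine or modified cytosine opposite guanine, had the highest estimate of all 40 genes at 0.60. It was at 11.5 and 6.57 CPM in young and 23.6 and 3.49 CPM in old replicates, so that the old libraries lay above and below both young ones. Without old replicate 1 its log2 fold change was -1.36. *Smug1* was about as high in the same-numbered libraries of both ages, at 9.71 and 20.3 CPM in young and 10.3 and 20.5 CPM in old. *Ogg1*, the glycosylase gene for oxidized guanine, and *Mpg*, that for alkylated purines, had log2 fold changes of -0.0056 and -0.19. *Neil3* had -0.28, and its estimate was above 0 without young replicate 1 and without old replicate 1.

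All 5 mismatch repair genes had a lower estimate in old ETP. The median of their log2 fold changes was -0.41. Their summed level was 471 and 521 CPM in young and 376 and 367 CPM in old replicates 1 and 2. *Msh3*, whose product recognizes larger insertion and deletion loops, was at 48.5 and 55.4 CPM in young and 32.7 and 28.1 CPM in old replicates. The young mean was 1.71 times the old mean. The log2 fold change was -0.77 with an interval from -1.47 to -0.072 (unadjusted p = 0.0359, adjusted p = 0.808). With any of the 4 libraries left out it stayed between -0.86 and -0.67. *Msh6*, whose product recognizes single mismatches and short loops, had the highest level of the 5, at 330 and 347 CPM in young and 267 and 244 CPM in old replicates. The ages did not overlap, and the log2 fold change was -0.41 (interval -1.03 to 0.22), or -0.44 to -0.37 with a library left out. *Pms2*, a subunit of the endonuclease that follows recognition, showed the tightest libraries, at 52.3 and 51.6 CPM in young and 47.2 and 46.4 CPM in old. The difference was small, with a log2 fold change of -0.15. *Mlh3*, the gene with the lowest level per length in the group, was at 22.4 and 46.5 CPM in young and 20.3 and 28.8 CPM in old replicates, and *Pms1* was at 17.5 and 20.2 CPM in young and 9.23 and 19.6 CPM in old. In both, a library of 1 age lay between those of the other.

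Of the 12 nucleotide excision repair genes, 8 had a lower and 4 a higher estimate in old ETP, and their median log2 fold change was -0.15. Their summed level was 957 and 933 CPM in young and 898 and 778 CPM in old replicates 1 and 2. The genes in which the ages did not overlap, *Ddb2*, *Xpc* and *Rad23b*, are all genes of damage recognition. *Ddb2*, whose product finds ultraviolet lesions, was at 38.6 and 35.7 CPM in young and 28.1 and 19.8 CPM in old replicates. The ages did not overlap, and the log2 fold change was -0.63 with an interval from -1.44 to 0.19 (adjusted p = 0.999). Its partner gene *Ddb1*, which also serves a ubiquitin ligase, had the highest level of the 12 at 429 and 386 CPM in young and 392 and 307 CPM in old replicates, with overlap. *Xpc*, the sensor of helix distortion, was at 77.5 and 78.3 CPM in young and 62.4 and 54.2 CPM in old replicates. The log2 fold change was -0.42 (interval -1.04 to 0.20), and the ages stayed apart. *Rad23b*, whose product stabilizes XPC, was at 170 and 171 CPM in young and 157 and 147 CPM in old replicates, a log2 fold change of -0.16.

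The genes that act after recognition or at stalled transcription had estimates from -0.39 to 0.21. For the helicase genes of TFIIH, *Ercc3* and *Ercc2*, the log2 fold changes were -0.025 and -0.14, and for *Xpa*, which checks the lesion, 0.21. The nuclease genes *Ercc1*, *Ercc4* and *Ercc5* had 0.042, 0.10 and -0.15. *Ercc6* and *Ercc8*, which act where RNA polymerase stalls at a lesion, had 0.12 and -0.39. *Ercc8* had the lowest level of the 12, at 11.2 and 8.65 CPM in young and 11.9 and 2.83 CPM in old replicates, and the last value rests on 13 fragments. Of these 8 genes, all overlapped between the ages. *Ercc3* gave the narrowest interval, from -0.66 to 0.61, which still holds changes of 1.5-fold in either direction. On the FPKM scale the estimates of *Xpa*, *Ercc1*, *Ercc4* and *Ercc6* were negative.

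Of the 8 end-joining genes, 7 were tested, of which 6 had a lower estimate in old ETP. Their median log2 fold change was -0.30. Their summed level was 720 and 817 CPM in young and 507 and 586 CPM in old replicates 1 and 2. The Ku genes had the largest differences. *Xrcc6*, which encodes Ku70, was at 325 and 284 CPM in young and 213 and 135 CPM in old replicates. Its young mean was 1.75 times its old mean, and its log2 fold change of -0.81 was the lowest of all 40 genes (interval -1.60 to -0.0077, unadjusted p = 0.0485, adjusted p = 0.890). It ran from -1.13 to -0.55 with a library left out. *Xrcc5*, which encodes Ku80, was at 72.6 and 75.0 CPM in young and 52.6 and 45.8 CPM in old replicates. The log2 fold change was -0.58 (interval -1.21 to 0.039, unadjusted p = 0.0613), and -0.65 to -0.51 with a library left out. Per length, *Xrcc6* had a mean level of 233 TPM and *Xrcc5* one of 48.9 TPM.

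The remaining genes of the pathway did not separate by age in the same way. *Prkdc*, the catalytic subunit of DNA-PK, was at 194 and 299 CPM in young and 141 and 247 CPM in old replicates. *Dclre1c*, which encodes Artemis, the nuclease that opens the hairpins of receptor gene rearrangement, was at 39.7 and 78.5 CPM in young and 39.8 and 69.1 CPM in old replicates. *Lig4*, the final ligase, was at 3.34 and 11.4 CPM in young and 2.58 and 12.4 CPM in old replicates. In these 3 genes the libraries numbered 2 lay above the libraries numbered 1 at both ages, and the gap within an age exceeded the difference between the ages. *Lig4* had the lowest level per length of all 41 genes, with a mean of 3.76 TPM. *Xrcc4*, the partner of ligase IV, was at 20.7 and 21.6 CPM in young and 15.5 and 21.4 CPM in old replicates. *Nhej1*, which encodes XLF, was at 7.20 and 7.05 CPM in young and 7.32 and 10.02 CPM in old replicates, a log2 fold change of 0.27 (interval -0.75 to 1.29) that was -0.039 on the FPKM scale. *Polq*, the polymerase gene of the alternative pathway that joins ends at short homologies, was at 57.8 and 40.0 CPM in young and 34.5 and 45.3 CPM in old replicates, with overlap. Without old replicate 1 the median of the 7 genes was 0.047 in place of -0.30.

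*Mgmt*, whose product takes a methyl group directly from guanine, was at 6.55 and 2.88 CPM in young and 4.66 and 1.09 CPM in old replicates. The ages overlapped, the lowest value rests on 5 fragments, and the interval of the log2 fold change ran from -2.62 to 1.30.

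**Figure D3:**
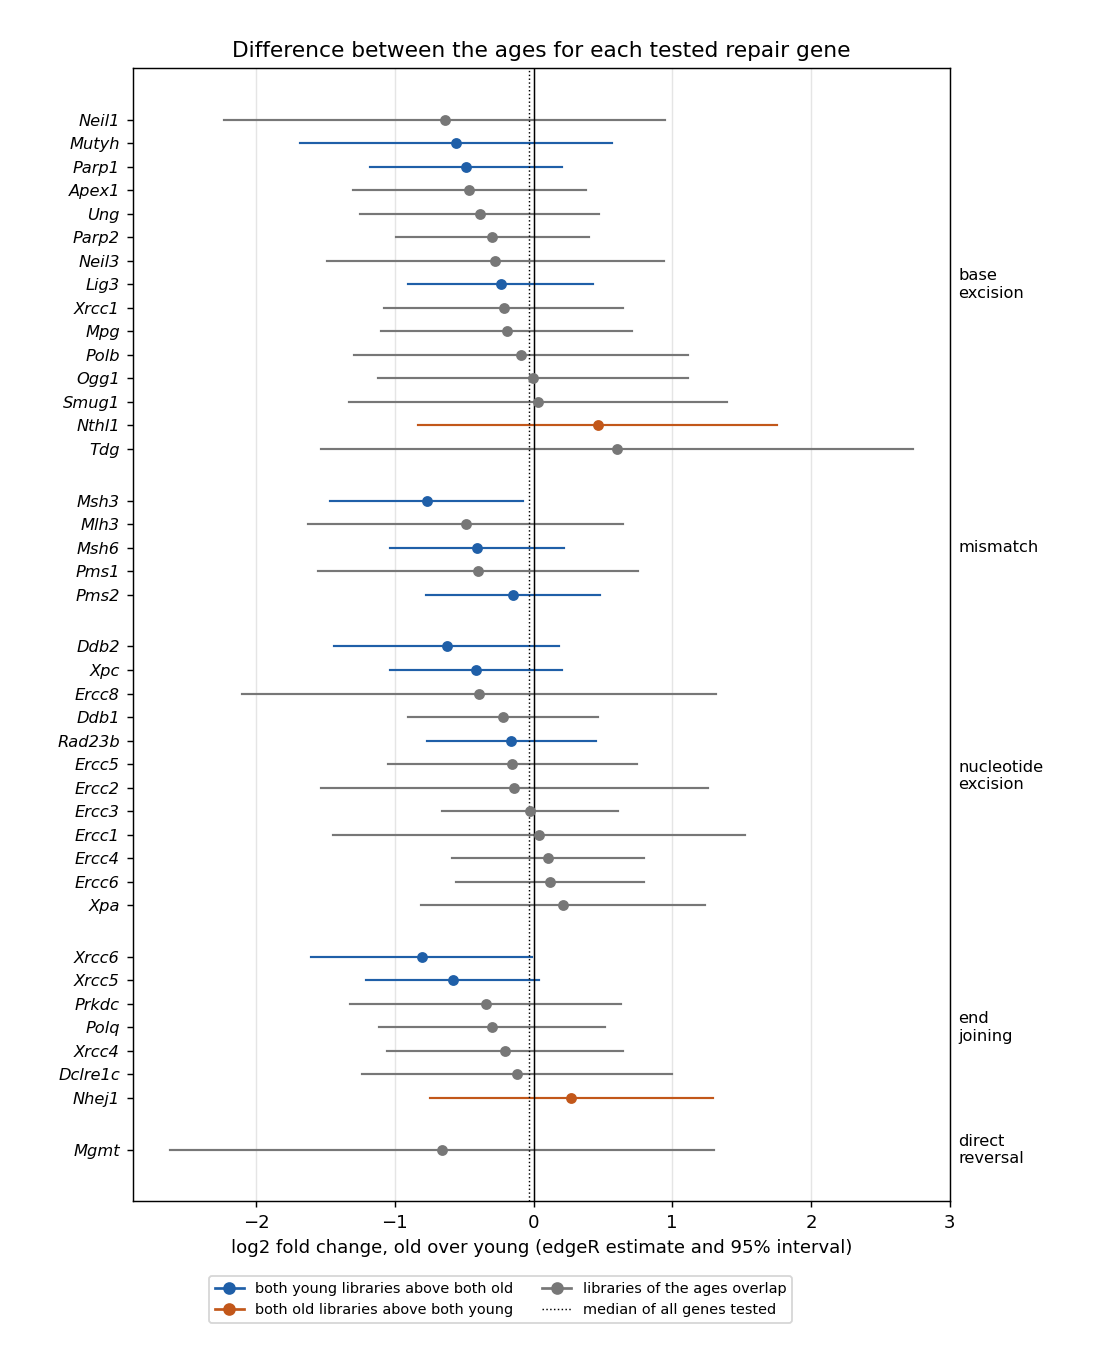
Log2 fold change from young to old ETP for the 40 tested repair genes, with edgeR's estimate as a point and its 95% interval as a line, ordered within each pathway. The intervals of *Msh3* and *Xrcc6* end below 0, at -0.072 and -0.0077, and the other 38 intervals include 0. Colours show whether the libraries of the ages overlap, and the dotted line is the median of all tested genes at -0.033.

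Promoter sequences were searched for the words by which E2F factors, regulators of genes of the cell cycle, are known to bind. Of the 41 genes, 36 had a RefSeq promoter (GRCm38, 250 bases before to 50 after the start), and *Polb*, *Xpc*, *Ercc3*, *Ddb2* and *Prkdc* were not matched. The words TTTGGCGC, TTTCCCGC, TTTGCCGC and TTTCGCGC were sought on both strands. They were in the promoters of 4 of the 36 genes, or 11.1%, and in those of 2.61% of all genes with a promoter in the same table. The 4 genes were *Xrcc6*, *Msh3*, *Msh6* and *Nthl1*, with log2 fold changes of -0.81, -0.77, -0.41 and 0.46. *Msh3* and *Xrcc6* had the lowest p-values of the members, and the estimate of *Nthl1* had the other sign. The 2.61% covers 27025 genes, whether or not they were tested here. A relation between the words and the difference between the ages was not tested. The stretches that hold the words in *Xrcc6*, *Msh6* and *Nthl1* are shown as examples. Each has 30 bases, is written 5′ to 3′ on the strand of the gene, and has the word in capitals. The capitals of *Xrcc6* are the reverse complement of TTTCCCGC, which lies on the other strand there, and those of *Msh6* and *Nthl1* read as searched.
Xrcc6, chr15:82016312-82016341, plus strand: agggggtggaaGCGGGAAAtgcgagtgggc
Msh6, chr17:87975054-87975083, plus strand: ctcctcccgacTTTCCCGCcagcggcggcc
Nthl1, chr17:24632539-24632568, plus strand: ccgcgcgcgccTTTCGCGCgcaggtcctcc
The first base of the word lay at -46 in *Xrcc6*, 15 in *Msh6* and -132 in *Nthl1*, counted from 0 at the start site. Of the other words searched, CCAAT was in 21 of the 36 member promoters against 41.1% of all genes, and TTTGAA in 2 of the 36, *Ercc5* and *Polq*, against 20.2% of all genes. A match describes the letters of the window and does not show that a factor binds there.

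By the GENCODE M21 annotation (GRCm38), 19 of the 41 genes overlap an exon of another gene, and no source used here states if counting used strand, so fragments from shared positions cannot be assigned with certainty. Among them are *Xrcc6* with *Desi1*, *Msh6* with *Fbxo11*, *Ddb2* with *Acp2*, *Apex1* with *Pip4p1* and *Ercc1* with *Cd3eap*. *Xrcc6* lies on chromosome 15 from 81987835 to 82040085, *Xrcc5* on chromosome 1 from 72307421 to 72394952 and *Msh3* on chromosome 13 from 92211872 to 92355003. The RefSeq start used for the *Xrcc6* promoter lies inside the span given for that gene, not at its first base. The 41 genes are spread over 18 chromosomes.

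A list of 44 further symbols covers the rest of these pathways, of which 43 had a row under that symbol and 41 were tested. Of these, 33 had a lower and 8 a higher estimate in old ETP, and the median of the log2 fold changes was -0.20. In 7 of the 41, or 17.1%, both young libraries lay above both old ones, close to the 15.5% of all tested genes. The reverse order held for 2, or 4.88%, against 16.1% of all tested genes. In 37 of the 41, or 90.2%, the larger gap between libraries of 1 age exceeded the difference between the ages, against 78.7% of all tested genes. None of the 41 passed the test in either direction by edgeR or DESeq2. An unadjusted p under 0.05 was found for *Dntt*, which encodes the terminal transferase that adds bases at the joints of rearranged receptor genes. *Dntt* was at 1332 and 1271 CPM in young and 782 and 397 CPM in old replicates. The log2 fold change was -1.14 (interval -2.15 to -0.13, unadjusted p = 0.0327, adjusted p = 0.798), and it ran from -1.68 to -0.76 with a library left out. *Exo1*, the exonuclease of mismatch repair, was at 63.7 and 60.5 CPM in young and 45.3 and 25.5 CPM in old replicates (log2 fold change -0.80, unadjusted p = 0.0671). All 7 further genes of mismatch repair had lower estimates (median -0.31), as had 12 of 15 of nucleotide excision repair (median -0.15), 7 of 10 of base excision repair (median -0.20) and 6 of 7 of end joining (median -0.45). *Ccnh*, a subunit of TFIIH, was at 40.4 and 43.1 CPM in young and 29.2 and 30.1 CPM in old replicates.

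The members varied with their level. Above the median level of 32.6 CPM, 18 of 20 tested genes had a lower estimate in old ETP and 9 had both young libraries on top, while 55.3% and 15.9% of all genes above that level did. At or below it, 14 of 20 had a lower estimate and 2 had both young libraries on top, while 50.7% and 14.9% of all genes at or below that level did. The median standard error of the log2 fold change was 0.28 in the former and 0.47 in the latter, so differences among the scarcer genes were estimated less precisely. In 30 of the 40 genes the larger gap between libraries of 1 age exceeded the difference between the ages, as in 78.7% of all tested genes. In 10 genes replicate 2 lay above replicate 1 at both ages, in 17 it lay below at both ages and in 13 the ages differed.

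Other features of the same libraries are given here, some of which moved with age, and their part in the values above was not tested. Of 26 S phase genes, 25 were estimated lower in old ETP, at a median of -0.40 on the log2 scale, with a summed level of 4496 and 3573 CPM in young and 3454 and 2422 CPM in old replicates 1 and 2. The 12 genes listed as markers of conventional dendritic cells were all estimated higher in old ETP, and none was at 0 in any library. Their summed levels were 925 and 1480 CPM in young and 6539 and 21150 CPM in old replicates. Most of each sum came from *Cd74*, *H2-Aa*, *H2-Ab1* and *H2-Eb1*. In 11 of the 12 both old libraries lay above both young ones. *Flt3* overlapped between the ages, with a log2 fold change of 0.19 (interval -0.57 to 0.96). Of 12 markers of NK and innate lymphoid cells 7 were tested, of which 6 had higher estimates, at a median of 3.13 on the log2 scale over the 7. The summed levels of the 12 were 246 to 249 CPM in young and 394 to 426 CPM in old libraries. *Nkg7*, the 1 tested marker with a lower estimate, was at 220 and 214 CPM in young and 231 and 158 CPM in old replicates. It made up most of the sum in all libraries but old replicate 2. Among the 6 with higher estimates, *Il2rb* was at 8.95 and 8.01 CPM in young and 59.6 and 90.0 CPM in old replicates. *Tbx21* was at 0 in both young libraries. Summed levels of 11 genes of more mature thymocytes were 126 to 166 CPM in young and 102 to 163 CPM in old libraries, with *Ptcra* at 0 in all. Of the 6 that were tested, 3 had higher and 3 lower estimates. *Cd3e*, a CD3 chain of mature T cells, was at 3.34 and 2.88 CPM in young and 11.2 and 36.2 CPM in old replicates (log2 fold change 2.90, adjusted p = 0.379 by edgeR and 0.00142 by DESeq2), whereas *Rag2* was at 47.0 and 96.7 CPM in young and 20.9 and 43.6 CPM in old replicates. The summed levels of 6 B cell genes were 25.9 to 33.9 CPM in young and 27.5 to 39.7 CPM in old libraries. Those of 8 myeloid genes were 1358 to 2064 CPM in young and 740 to 1513 CPM in old libraries. The myeloid sums rest mostly on *Mpo*, which was at 1716 and 1092 CPM in young and 1126 and 437 CPM in old replicates. Of the 8 genes, 5 had lower and 3 higher estimates in old ETP. The nuclear RNA *Malat1* took a share of 0.475% and 0.895% in the young libraries and of 0.983% and 1.60% in the old ones, of all fragments.

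**Figure D4:**
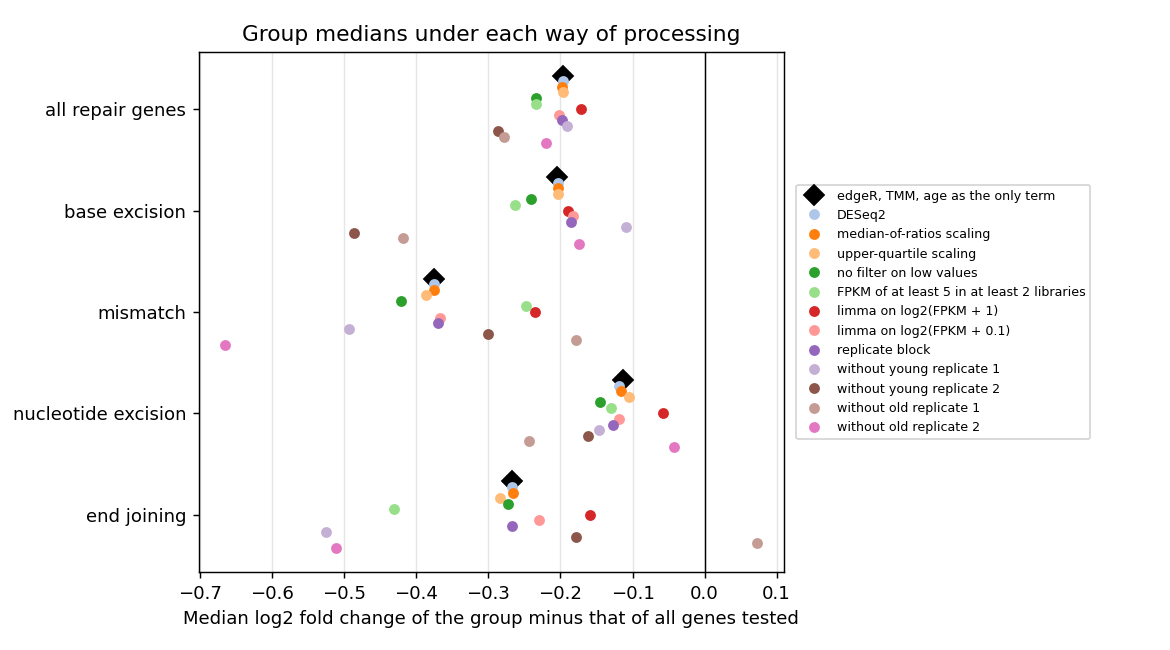
Median log2 fold change of each group of repair genes minus that of all tested genes, under edgeR with TMM scaling (diamond) and 12 other ways of processing (circles). Apart from end joining without old replicate 1, every point lies below 0, and the points for mismatch repair and end joining spread more than those for all repair genes.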

How the data were processed

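Whole transcriptome sequencing covered 4 libraries of sorted ETP, 2 per age. Before deposit, the authors aligned reads with STAR 2.3.0 to GRCm38 (mm10), and the columns of their deposited table are those that Cuffdiff writes (Cufflinks 2.1.1). Estimated counts in it are fragments per gene as assigned by the authors. The scaled signal is the same fragments after multiplication by the authors' factor for that library. FPKM are the authors' values per transcript length, which kept part of the difference in depth (sums of 122998 to 281542). HTSeq counts were not used here. Strand, multiple alignments and filters are not given in the sources used here.

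Estimated counts were rounded, scaled by TMM and tested by age alone with edgeR's quasi-likelihood test (version 4.0.16, R 4.3.3) over the 10080 genes whose FPKM reached 1 in 2 or more libraries, with Benjamini-Hochberg adjustment over all of them and a threshold of 0.05. Results were recomputed with DESeq2 1.42.0, with limma 3.58.1 on log2(FPKM + 1) and log2(FPKM + 0.1), with upper-quartile or median-of-ratios scaling, with other filters, with a term for the replicate number, and without each library in turn. The steps were tested on simulated counts. The smallest p of an exact permutation test on 1 gene, with 2 libraries against 2, is 0.333.

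The members and lists were chosen with earlier results of these data known. By rule, values in all libraries were given for members with an unadjusted p under 0.05 or called by DESeq2, for the largest separated difference in each direction and the highest and lowest FPKM of each pathway, and for *Mgmt*. Those of *Parp1*, *Lig3*, *Tdg*, *Smug1*, *Pms1*, *Pms2*, *Xpc*, *Rad23b*, *Xrcc5*, *Prkdc*, *Dclre1c*, *Xrcc4* and *Polq* were added after they were seen. The values of *Nkg7*, *Il2rb*, *Mpo*, *Cd3e* and *Rag2* were added in the same way. The promoter stretch of *Msh3* is not reported here. Of the other pathway genes, up to 2 per pathway with the smallest p could be named. The libraries of an age differed by more than sampling noise (chi-square per gene 57.5 in young and 68.4 in old ETP).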

Additional observations from a re-analysis of the deposited data

How the results depend on the processing

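No repair gene passed an adjusted p under 0.05 except with the replicate number as a term, where *Msh3* (adjusted p = 0.0477) and *Xrcc6* (adjusted p = 0.00737) were lower in old ETP. With this replicate block edgeR called 578 genes higher and 199 lower over all genes, and 2 repair genes and 4 other pathway genes lower. Deviations of same-numbered libraries from the means of their age correlated at 0.73 across genes, but nothing in the labels says what a number shares. DESeq2 called 210 higher and 15 lower over all genes. With no filter on low values edgeR called 474 higher and 34 lower, with 1 other pathway gene in each direction. With a library left out the calls over all genes ranged from 0 to 218 higher and from 0 to 3 lower, the most without old replicate 1. Where this left 1 library at an age, its spread was taken from the other age.

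The signs of 19 of 40 repair genes held under all 12 alternatives, or under the 11 that tested them, *Msh3*, *Xrcc6*, *Xrcc5*, *Parp1*, *Msh6* and *Xpc* among them. Where a sign turned, the cause was not tested. On log2(FPKM + 1), where the median of all genes was -0.27, the medians of repair, nucleotide excision and other pathway genes were -0.44, -0.33 and -0.43. The estimates there were -0.14 for *Smug1*, -0.12 for *Xpa*, -0.28 for *Ercc1*, -0.12 for *Ercc4*, -0.11 for *Ercc6* and -0.039 for *Nhej1*. On log2(FPKM + 0.1), where it was -0.33, the medians of repair, base excision, mismatch, nucleotide excision, end-joining and other pathway genes were -0.53, -0.51, -0.69, -0.44, -0.56 and -0.50. The estimates were -0.12 for *Tdg*, -0.23 for *Smug1*, -0.13 for *Xpa*, -0.39 for *Ercc1*, -0.17 for *Ercc4*, -0.15 for *Ercc6* and -0.039 for *Nhej1*. Upper-quartile scaling gave -0.0090 for *Smug1* and the replicate block -0.037 for *Ercc1*. The stricter filter of FPKM 5 left 20 repair genes, 18 lower in old ETP, and a mismatch median of -0.26. Repair genes with both old libraries on top numbered 1 with median-of-ratios scaling and 0 with upper-quartile scaling, the stricter filter or FPKM.

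With a library left out, the number of repair genes lower in old ETP was 27 to 30. The median ranged from -0.31 to -0.20 for repair genes, -0.48 (without young replicate 2) to -0.12 for base excision, -0.69 (without old replicate 2) to -0.20 (without old replicate 1) for mismatch, -0.27 (without old replicate 1) to -0.070 (without old replicate 2) for nucleotide excision, and -0.54 (without old replicate 2) to 0.047 (without old replicate 1) for end joining. Estimates that changed sign ranged from -0.48 to 0.12 for *Xrcc1*, -0.53 to 0.34 for *Ogg1*, -0.83 to 0.26 for *Neil3*, -1.36 to 1.33 for *Tdg*, -0.55 to 0.65 for *Smug1*, -0.50 to 0.50 for *Polb*, -0.93 to 0.12 for *Mlh3*, -1.05 to 0.10 for *Pms1*, -0.25 to 0.61 for *Xpa*, -0.89 to 0.54 for *Ercc1*, -1.13 to 0.41 for *Ercc2*, -0.15 to 0.12 for *Ercc3*, -0.019 to 0.23 for *Ercc4*, -0.52 to 0.18 for *Ercc5*, -0.076 to 0.34 for *Ercc6*, -1.77 to 0.22 for *Ercc8*, -0.82 to 0.047 for *Prkdc*, -0.47 to 0.052 for *Xrcc4*, -0.58 to 0.45 for *Dclre1c* and -2.10 to 0.070 for *Mgmt*. Depth limits the scarce genes most, such as *Neil1* and *Mgmt* with 5 fragments each in old replicate 2.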
